A study of Mus musculus with 18 samples.

Results

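Accessible chromatin was examined at 7 genes in bone marrow-derived macrophages (BMDMs): Gpnmb and 6 further genes that mark lipid-associated macrophages, Trem2, Spp1, Lgals3, Lpl, Cd9 and Fabp5. Peaks were taken when they overlapped the body of one of these genes extended by 25 kb on both sides in the mm9 annotation, which gave 133 of the 194284 ATAC-seq peaks. Gpnmb had been chosen by one of the largest falls in accessibility with LPS, so its change between LPS and Unstimulated is a description without a test; the other 6 genes were added as its companions. All 133 peaks passed the filter on low counts.

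The cells came from 3 male Il10-/- mice of 12 weeks on the C57BL/6J background, so every group, controls included, lacked IL-10 of its own, and no wild-type cells were analysed here. BMDMs were kept for 16 h in total in 6 conditions with 3 libraries each, 18 in all. The libraries of each group are numbered 1 to 3; that a number stands for 1 mouse is not stated in the sources used here, so p-values measure the spread between these libraries. Unstimulated cells received neither agent nor LPS; (+)-JQ1 cells received 500 nM of (+)-JQ1, a small molecule that keeps BET bromodomain proteins off acetylated lysines; IL-10 cells received 10 ng/mL of recombinant IL-10. For the other groups 50 ng/mL of LPS was added for the last 4 h, after 12 h with no agent (LPS), with (+)-JQ1 (LPS + (+)-JQ1) or with IL-10 (LPS + IL-10). The labels call the LPS libraries untreated, while the paper's methods name a vehicle control for those 12 h and none for Unstimulated cells. Vehicle may therefore also differ in the comparisons with Unstimulated cells, and its part was not tested.

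Lipid-associated macrophages are a state found in adipose tissue, atherosclerotic plaques, fatty liver and demyelinated brain, in which macrophages take up and break down lipid. TREM2, a surface receptor for lipids and lipoproteins that signals through the adaptor TYROBP, drives much of this state. GPNMB is a transmembrane glycoprotein of lysosomes and the cell surface whose gene is known as a target of the MiT/TFE transcription factors that respond to lysosomal load. ATAC-seq reads out where the Tn5 transposase can enter chromatin, so the values below are accessibility, not RNA.

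The 28 peaks of the Gpnmb window surround a gene on chromosome 6 (plus strand, chr6:48986517-49020928) whose window also reaches 2410003K15Rik and Igf2bp3. The other windows held 16 peaks for Trem2 (chr17:48485726-48493472, plus strand; also B430306N03Rik and Treml1), 15 for Spp1 (chr5:104864137-104870069, plus strand; also Gm10047 and Pkd2), 21 for Lgals3 (chr14:47987426-48005835, plus strand; also Dlgap5), 11 for Lpl (chr8:71404390-71431347, plus strand), 31 for Cd9 (chr6:125410284-125444809, minus strand; also Gm16749) and 11 for Fabp5 (chr3:10012548-10016607, plus strand). Fabp5 had no peak between 1000 bp upstream and 100 bp downstream of an annotated start. A peak over a neighbouring gene was counted with the window it fell in, and its neighbour is named where it is described.

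The sequences below show the DNA at the peaks on which the results turn. They are from mm9, plus strand, and capitals mark matches to any of the motifs searched on both strands: AP-1 (TGANTCA), E-box (CACGTG), M-box (CATGTG), PU.1 (GAGGAAG), C/EBP (TTGCNNAA), the kappaB motif and the nuclear receptor motif (AGGTCA); matches were allowed to overlap each other. The 250 bases before the Gpnmb start (chr6:48986267-48986516) and the centre of the Gpnmb intronic peak with the largest fall (chr6:49017806-49018105) are shown first, followed by the centres of the Lgals3 (chr14:47994231-47994530) and Trem2 (chr17:48486276-48486575) promoter peaks, of the Spp1 upstream peak (chr5:104859842-104860141), and of the Lpl downstream peak with the largest rise (chr8:71449761-71450060).
Gpnmb upstream: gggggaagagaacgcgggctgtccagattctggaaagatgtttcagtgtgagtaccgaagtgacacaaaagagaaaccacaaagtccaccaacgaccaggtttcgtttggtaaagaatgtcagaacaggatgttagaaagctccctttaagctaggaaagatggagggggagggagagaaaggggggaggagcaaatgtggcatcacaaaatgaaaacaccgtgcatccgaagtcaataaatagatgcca
Gpnmb intronic peak: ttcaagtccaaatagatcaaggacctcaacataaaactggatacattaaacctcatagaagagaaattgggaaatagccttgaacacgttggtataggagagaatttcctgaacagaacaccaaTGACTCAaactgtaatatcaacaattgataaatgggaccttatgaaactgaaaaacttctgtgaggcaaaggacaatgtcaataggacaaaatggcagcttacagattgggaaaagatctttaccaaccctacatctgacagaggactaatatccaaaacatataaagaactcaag
Lgals3 promoter peak: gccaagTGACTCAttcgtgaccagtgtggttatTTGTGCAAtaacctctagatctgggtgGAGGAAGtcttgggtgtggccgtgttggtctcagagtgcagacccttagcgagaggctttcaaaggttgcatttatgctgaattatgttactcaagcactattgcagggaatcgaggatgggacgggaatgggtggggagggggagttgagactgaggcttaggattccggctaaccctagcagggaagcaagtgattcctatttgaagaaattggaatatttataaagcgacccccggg
Trem2 promoter peak: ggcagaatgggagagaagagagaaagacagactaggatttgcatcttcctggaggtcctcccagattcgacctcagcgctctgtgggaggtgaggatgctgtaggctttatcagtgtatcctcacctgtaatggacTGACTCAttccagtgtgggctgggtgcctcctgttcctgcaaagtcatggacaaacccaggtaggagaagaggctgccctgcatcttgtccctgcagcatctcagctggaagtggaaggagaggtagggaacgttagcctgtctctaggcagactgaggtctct
Spp1 upstream peak: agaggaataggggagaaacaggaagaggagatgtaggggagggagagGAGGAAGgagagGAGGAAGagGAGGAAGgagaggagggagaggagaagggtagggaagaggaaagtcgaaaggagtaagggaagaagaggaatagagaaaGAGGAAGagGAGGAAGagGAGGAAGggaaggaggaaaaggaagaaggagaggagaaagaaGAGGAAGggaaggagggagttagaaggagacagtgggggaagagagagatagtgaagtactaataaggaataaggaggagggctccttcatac
Lpl downstream peak: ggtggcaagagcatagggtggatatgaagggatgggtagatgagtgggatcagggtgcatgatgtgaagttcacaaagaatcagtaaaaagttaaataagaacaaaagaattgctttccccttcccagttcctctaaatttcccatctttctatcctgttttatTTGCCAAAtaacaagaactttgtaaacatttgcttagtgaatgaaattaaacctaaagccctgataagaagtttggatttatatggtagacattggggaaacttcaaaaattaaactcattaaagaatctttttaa

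The Gpnmb intronic, Lgals3 promoter and Trem2 promoter centres each held 1 match to AP-1, which 12.1% of the 300-base centres of all tested peaks held. A centre lies about the midpoint of a peak, not its point of highest signal, so a match need not be at the most accessible bases. Repeated sequence was not masked. Whether a match, that in the Gpnmb intronic centre included, lies in a repeat found elsewhere in the genome was not tested. The Spp1 upstream peak held 7 matches to PU.1 within a stretch made almost wholly of purines; 15.7% of peak centres held at least 1. The Lgals3 promoter centre also held 1 match each to PU.1 and C/EBP, and the Lpl downstream centre 1 match to C/EBP, against 12.5% of peak centres with a C/EBP match. The 250 bases before the Gpnmb start held none of these 7 motifs. Of the same upstream window at 22367 protein-coding genes, 6.0% held AP-1, 6.52% the E-box, 10.5% the M-box, 10.5% PU.1, 9.16% C/EBP, 18.7% kappaB and 12.5% the nuclear receptor motif.

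The total count in peaks was 12020526 to 25908198 per library. The scaling factors by trimmed mean of M values (TMM) were 1.04 to 1.24 in the 3 Unstimulated libraries and 0.896 to 1.05 in all others, so the 3 comparisons with Unstimulated cells depend on the scaling: with total counts in place of TMM the median log2 fold change of all tested peaks went from -0.03 to -0.26 for LPS, from -0.09 to -0.37 for (+)-JQ1 and from -0.05 to -0.26 for IL-10, while between the other groups it stayed between -0.01 and 0.05. Replicate 1 of every group was sequenced in lane 5 and replicate 3 in lane 6, and replicate 2 was in lane 5 without LPS and in lane 6 with LPS. All 9 macrophage markers had a promoter peak, with a median of 378.9 normalized counts per kb. Of 21 markers of other lineages, 14 had one, with a median of 56.5; none of the 4 T cell markers did. The ranges overlapped: Zbtb46, a dendritic cell marker, had 522 and S100a8, a neutrophil marker, 290.3, against 87.1 to 89.7 at the macrophage markers Csf1r, Cd68 and Itgam. The part of other cells in the results was not tested. The median over all peaks was 30.9 per kb and over the 133 peaks 41.4 per kb.

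Below, normalized counts are counts per peak scaled to a common library size with TMM; errors of levels are SD (n = 3 libraries). A log2 fold change is given with its standard error, and a peak was called when edgeR's quasi-likelihood test gave a Benjamini-Hochberg adjusted p, over all 194230 tested peaks, under 0.05 and an absolute log2 fold change above 0.5.

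Accessibility along the body and 3′ end of Gpnmb fell with LPS, also in cells that had been given (+)-JQ1 or IL-10 beforehand. The peak with the largest fall was in an intron (chr6:49016186-49019726, 3541 bp). Unstimulated libraries had 212, 286 and 369 normalized counts there, (+)-JQ1 libraries 178, 222 and 245 and IL-10 libraries 198, 247 and 226. With LPS the counts were 31.1, 36.6 and 46.0, with LPS + (+)-JQ1 41.8, 83.0 and 69.9, and with LPS + IL-10 43.9, 62.0 and 44.0. The 9 libraries without LPS lay above the 9 with LPS with no overlap, whereas the 3 groups on either side overlapped their neighbours. In bulk chromatin, fewer cells with the site open and a less open site per cell cannot be told apart.

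The values that chose Gpnmb were a mean of 289 ± 78.1 in Unstimulated and 37.9 ± 7.55 in LPS, a log2 difference of -2.95 ± 0.20. This was the second-largest fall of the 72701 peaks with a mean of at least 50 normalized counts, and no test is attached to it. The comparisons of LPS + (+)-JQ1 with (+)-JQ1 and of LPS + IL-10 with IL-10 share no library with that contrast. There the intronic peak fell, with a log2 fold change of -1.69 ± 0.19 (adjusted p = 1.8e-12, edgeR) and of -2.17 ± 0.19 (adjusted p = 2.6e-17, edgeR).

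**Figure D1:**
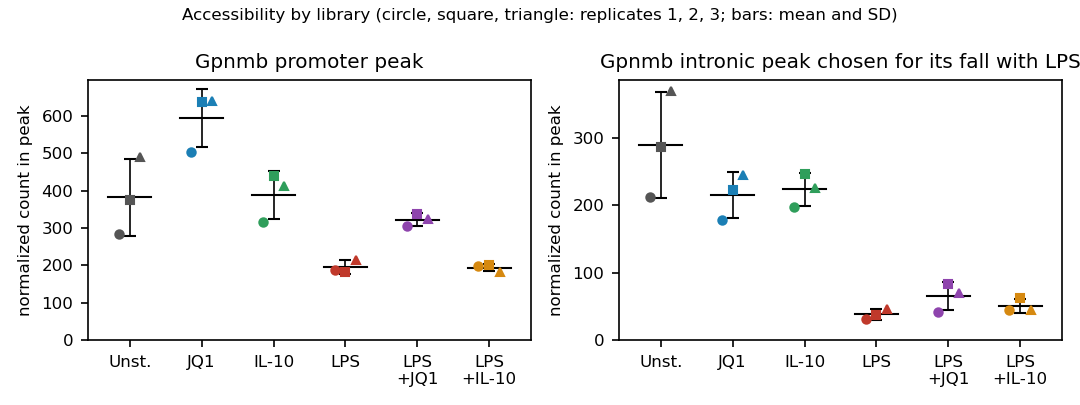
Normalized counts (y axis) of the Gpnmb promoter peak and of the intronic peak chosen for its fall with LPS, in the 6 conditions (x axis), one point per library, with the mean and SD as bars. At the intronic peak every LPS-treated library is below every library without LPS, and at the promoter the (+)-JQ1 libraries are the highest.

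At the Gpnmb promoter (chr6:48986140-48987466), the means in descending order were 593 ± 78.0 with (+)-JQ1, 389 ± 64.0 with IL-10, 382 ± 103 in Unstimulated, 322 ± 16.7 with LPS + (+)-JQ1, 195 ± 17.8 with LPS and 193 ± 9.8 with LPS + IL-10. IL-10, Unstimulated and LPS + (+)-JQ1 overlapped in turn, as did LPS and LPS + IL-10; the (+)-JQ1 group lay above all others. LPS lowered the promoter, with a log2 fold change of -0.88 ± 0.14 in (+)-JQ1 cells (adjusted p = 1.2e-06, edgeR) and of -1.01 ± 0.15 in IL-10 cells (adjusted p = 4.6e-08, edgeR). The difference between LPS and Unstimulated, from the contrast that chose the gene, was -0.98.

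The widest Gpnmb peak (chr6:49004736-49016166, 11431 bp over exons and introns) held 683, 829 and 933 normalized counts with (+)-JQ1 and 259.5, 382 and 344 with LPS + (+)-JQ1. It held 771, 704 and 781 with IL-10 and 257, 260.1 and 238 with LPS + IL-10. Neither pair of groups overlapped, and the log2 fold changes were -1.30 ± 0.14 (adjusted p = 2.5e-12, edgeR) and -1.58 ± 0.15 (adjusted p = 4.5e-16, edgeR). The most accessible Gpnmb peak outside the promoter (chr6:49019829-49024741), at the 3′ end and also over 2410003K15Rik, changed less, by -0.47 ± 0.14 (adjusted p = 0.012, edgeR; short of the fold threshold) and -0.60 ± 0.14 (adjusted p = 0.00054, edgeR). Of the 10 Gpnmb peaks over exons or introns, LPS lowered 6 in (+)-JQ1 cells and 7 in IL-10 cells, and raised none in either. It lowered 3.58% and 6.47% of all tested peaks. Among the 13 upstream peaks, 1 fell in (+)-JQ1 cells and 1 rose in IL-10 cells (chr6:48982527, log2 fold change 0.67). The change was therefore uneven across the window, as the plot of LPS changes against distance shows. Just beyond the window, the next peaks on the 2 sides differed between LPS and Unstimulated by -0.12 and -0.87 on the log2 scale, against -0.78 and -0.69 for the outermost peaks inside.

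**Figure D2:**
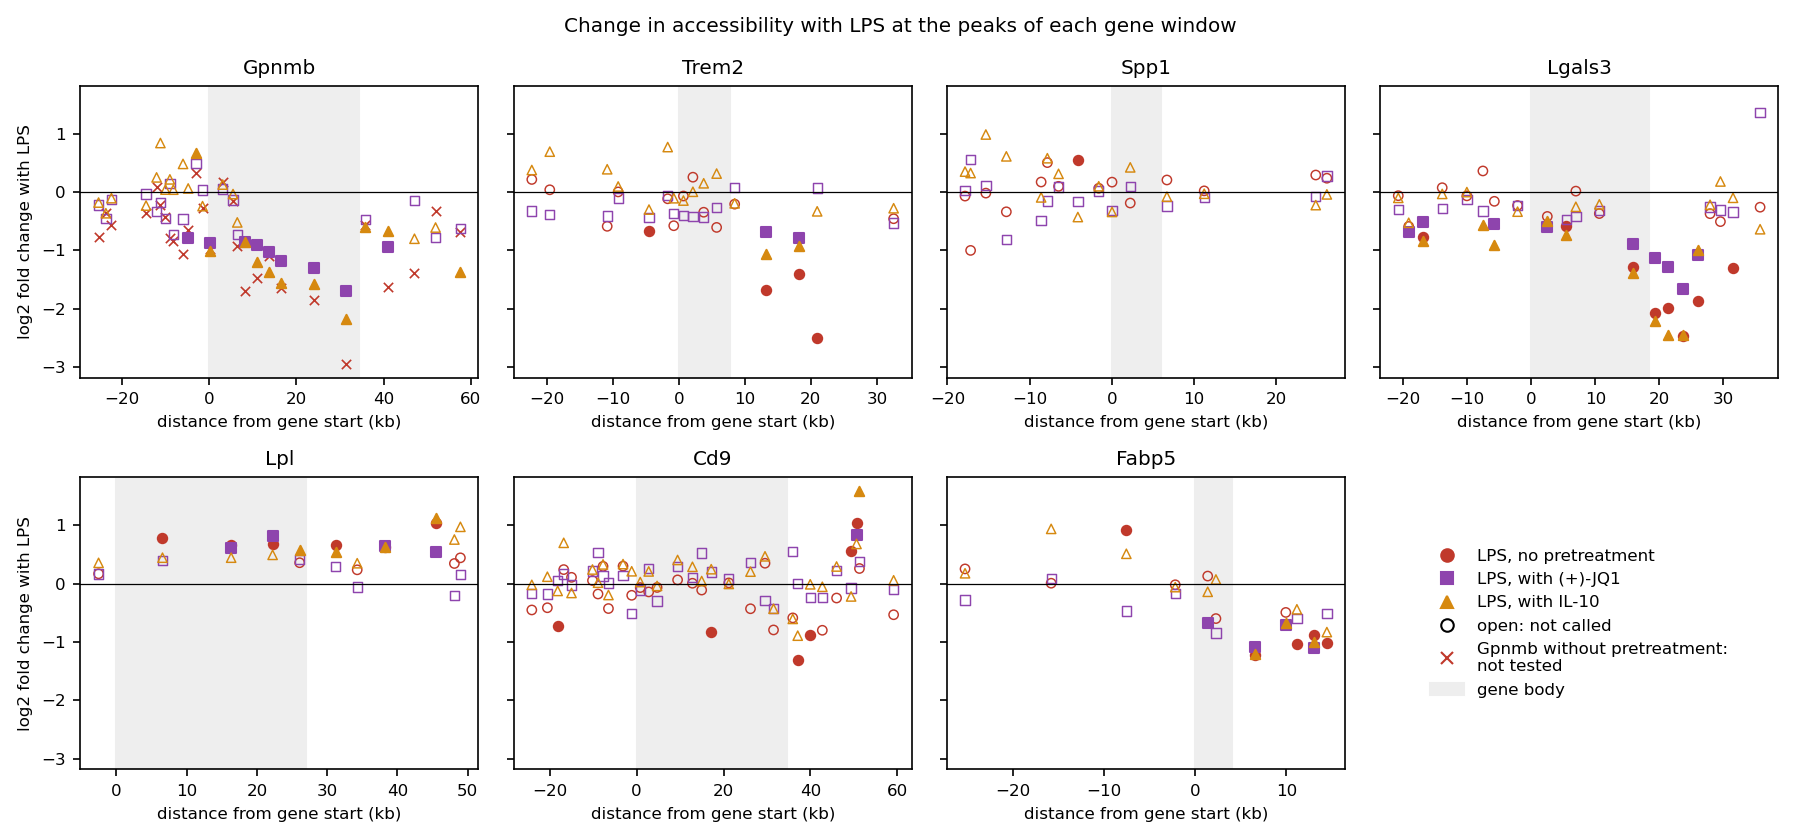
Log2 fold change with LPS (y axis) of each peak against the distance of its centre from the gene start in kb, in the direction of transcription (x axis), for the 7 genes; colours and symbols give the cells in which LPS was compared, filled symbols the called peaks and grey the gene body. Falls gather over the Gpnmb body and beyond the 3′ ends of Lgals3, Trem2 and Fabp5, and every called Lpl peak is higher.

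Lgals3 encodes galectin-3, a lectin that binds glycans on the cell surface and on damaged lysosomes. Its 3′ flank had the largest falls with LPS, and its main promoter peak was not called, whereas 1 of its other 2 promoter peaks (chr14:47992105) fell by 0.57 on the log2 scale (adjusted p = 0.0031, edgeR). The 3 neighbouring peaks beyond the 3′ end with the largest falls were chr14:48006313-48007174, between the genes, and chr14:48007296-48010150 and chr14:48010428-48011731, both over Dlgap5, which encodes a protein of the mitotic spindle. At the last of these, Unstimulated libraries had 189, 248 and 308 normalized counts and LPS libraries 38.8, 35.7 and 62.8. The (+)-JQ1 libraries had 188, 211 and 214, and LPS + (+)-JQ1 libraries 43.3, 68.7 and 76.5. The IL-10 libraries had 130.2, 179 and 162, and LPS + IL-10 libraries 15.3, 28.3 and 41.4. None of the 3 pairs overlapped. The log2 fold changes were -2.46 ± 0.20 (adjusted p = 2.2e-19, edgeR), -1.65 ± 0.19 (adjusted p = 3.2e-11, edgeR) and -2.45 ± 0.22 (adjusted p = 9e-17, edgeR), respectively.

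The Lgals3 peak at chr14:48007296-48010150 was lower still with LPS + IL-10. It held 81.1, 108 and 174 normalized counts with LPS and 55.3, 78.4 and 67.3 with LPS + IL-10, which did not overlap, a log2 fold change of -0.84 ± 0.19 (adjusted p = 0.001, edgeR). With (+)-JQ1 before LPS it held 137, 159 and 192, which overlapped LPS alone. By contrast, the main Lgals3 promoter peak (chr14:47993671-47995091, at an annotated start inside the gene, its centre 6954 bp from the first start) had 326, 385 and 513 in Unstimulated and 466, 428 and 343 with LPS. Those ranges overlapped, and the log2 fold change was 0.02 ± 0.14 (adjusted p = 0.95, edgeR). Upstream of Lgals3, the peak at chr14:47981134-47982180 had 559, 574 and 528 with IL-10 and 322, 304 and 262 with LPS + IL-10, which did not overlap, a fall of -0.90 ± 0.14 (adjusted p = 1.1e-07, edgeR). Without an agent LPS changed that peak by -0.16 ± 0.14 (adjusted p = 0.42, edgeR). A further 3′ peak (chr14:48012550) had 141, 178 and 257 in Unstimulated and 70.2, 97.7 and 101 with IL-10, and IL-10 alone lowered it, with a log2 fold change of -1.10 ± 0.20 (adjusted p = 9.1e-05, edgeR).

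At Trem2 the called falls, 1 upstream and 3 downstream, lay outside the promoter. Its promoter peak (chr17:48485839-48487013) had 264, 283 and 355 normalized counts in Unstimulated and 286, 323 and 252 with LPS, with overlapping ranges and a log2 fold change of -0.07 ± 0.14 (adjusted p = 0.77, edgeR). Beyond its 3′ end, over Treml1, a TREM-like receptor of platelets, the peak at chr17:48496310-48501606 had 431, 344 and 445 in Unstimulated and 116, 143 and 125 with LPS. It had 234, 188 and 245 with (+)-JQ1 and 114, 127 and 168 with LPS + (+)-JQ1, and 279.9, 243 and 336 with IL-10 and 115, 163 and 135 with LPS + IL-10. The 3 LPS groups overlapped each other and lay below the 3 groups without LPS. LPS lowered it in all 3 settings, with log2 fold changes of -1.67 ± 0.15 (adjusted p = 2.3e-16, edgeR), -0.69 ± 0.16 (adjusted p = 0.00098, edgeR) and -1.06 ± 0.15 (adjusted p = 3.7e-08, edgeR). (+)-JQ1 alone also lowered this peak, with a log2 fold change of -0.86 ± 0.15 (adjusted p = 5.6e-06, edgeR). The most accessible Trem2 peak outside the promoter, over exons at chr17:48492131, was not called in any comparison. The largest fitted fall outside Gpnmb, -2.50 at chr17:48506414-48506969, rested on few reads: 30.2, 37.2 and 21.6 in Unstimulated and 5.18, 5.63 and 4.49 with LPS.

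Fabp5 encodes a cytosolic fatty acid-binding protein. Its 3′ flank fell with LPS and rose with IL-10, while 1 weak upstream peak (chr3:10004627) went the other way with LPS, from 20.2 ± 2.28 to 38.4 ± 9.01 normalized counts (adjusted p = 0.025, edgeR). At chr3:10016669-10021668, just beyond the gene end, Unstimulated libraries had 300.5, 273 and 329 normalized counts and LPS libraries 108, 152 and 128. The IL-10 libraries had 480.3, 481 and 569 and the LPS + IL-10 libraries 213, 239 and 215, each above the matching group without IL-10 with no overlap. LPS changed it by -1.22 ± 0.15 (adjusted p = 1e-10, edgeR) and, in IL-10 cells, by -1.20 ± 0.14 (adjusted p = 2.1e-11, edgeR). IL-10 changed it by 0.76 ± 0.14 without LPS (adjusted p = 6.4e-05, edgeR) and by 0.78 ± 0.15 with LPS (adjusted p = 9.1e-05, edgeR). The interaction was 0.02 ± 0.20 (adjusted p = 0.97, edgeR). In (+)-JQ1 cells the counts were 308, 254 and 345 without and 114, 159 and 152 with LPS. That fall was -1.08 ± 0.15 (adjusted p = 1.5e-08, edgeR).

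The neighbouring Fabp5 peak (chr3:10021691-10023292) was also higher with IL-10. It had 527, 505 and 545 with IL-10 and 359, 341 and 292 with LPS + IL-10, against 270.3, 288 and 419 in Unstimulated and 238, 227 and 230.0 with LPS. IL-10 raised it by 0.69 ± 0.14 (adjusted p = 0.00034, edgeR) and, under LPS, by 0.51 ± 0.14 (adjusted p = 0.01, edgeR). The value without LPS was 0.49 with total counts and 0.37 with loess offsets, and was then not called; that of the peak at the gene end lost its call with loess offsets only, at 0.50. Of the 5 peaks downstream of Fabp5, IL-10 raised 3 without LPS and 4 with LPS, where 5.16% and 4.26% of all tested peaks rose.

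Lpl went the other way. Its product, lipoprotein lipase, releases fatty acids from triglyceride-rich lipoproteins. The promoter peak (chr8:71404315-71417571) is 13257 bp wide and had 768, 810.3 and 1005 normalized counts in Unstimulated, 1348, 1588 and 1508 with LPS and 1011, 1063 and 979 with LPS + IL-10. Every LPS library was above every Unstimulated and every LPS + IL-10 library. LPS raised it by 0.78 ± 0.13 (adjusted p = 1e-06, edgeR), and it was lower with IL-10 before LPS, with a log2 fold change of -0.54 ± 0.13 (adjusted p = 0.0019, edgeR). With total counts the second value was -0.48 and was not called; with loess offsets the values were 0.30 and -0.30, both short of the threshold on size.

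Over the Lpl exons, the peak at chr8:71423880-71429357 had 289, 235 and 345 in Unstimulated, 219, 179 and 152 with IL-10, 393, 554 and 438 with LPS and 254, 313 and 208 with LPS + IL-10. IL-10 groups lay below their counterparts with no overlap. The differences were -0.66 ± 0.15 without LPS (adjusted p = 0.0022, edgeR) and -0.84 ± 0.15 with LPS (adjusted p = 9.9e-06, edgeR), and both kept their call with total counts and with loess offsets. The (+)-JQ1 libraries had 231, 232 and 207 and LPS + (+)-JQ1 libraries 443, 323 and 412, a rise of 0.81 ± 0.15 (adjusted p = 2.7e-05, edgeR). The peak farther downstream (chr8:71447894-71451927) had 181, 179.9 and 188 with IL-10 and 407, 415 and 379 with LPS + IL-10, a rise of 1.13 ± 0.15 (adjusted p = 8.5e-10, edgeR). There LPS alone gave 321, 421 and 462, which overlapped LPS + IL-10. Of the 11 Lpl peaks, 6 were lower with IL-10 alone and 6 were lower with LPS + IL-10 than with LPS, 5 of them in both comparisons. Of all tested peaks 3.5% and 4.51% were lower in these 2 comparisons. A second exon peak (chr8:71417620) differed in the same way, by -0.56 ± 0.15 (adjusted p = 0.0077, edgeR) and -0.77 ± 0.14 (adjusted p = 3.5e-05, edgeR). LPS raised 6 of the 11 without an agent, 4 in (+)-JQ1 cells and 4 in IL-10 cells, and lowered none. Of all tested peaks it raised 11.7%, 5.69% and 8.93% in these 3 settings.

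**Figure D3:**
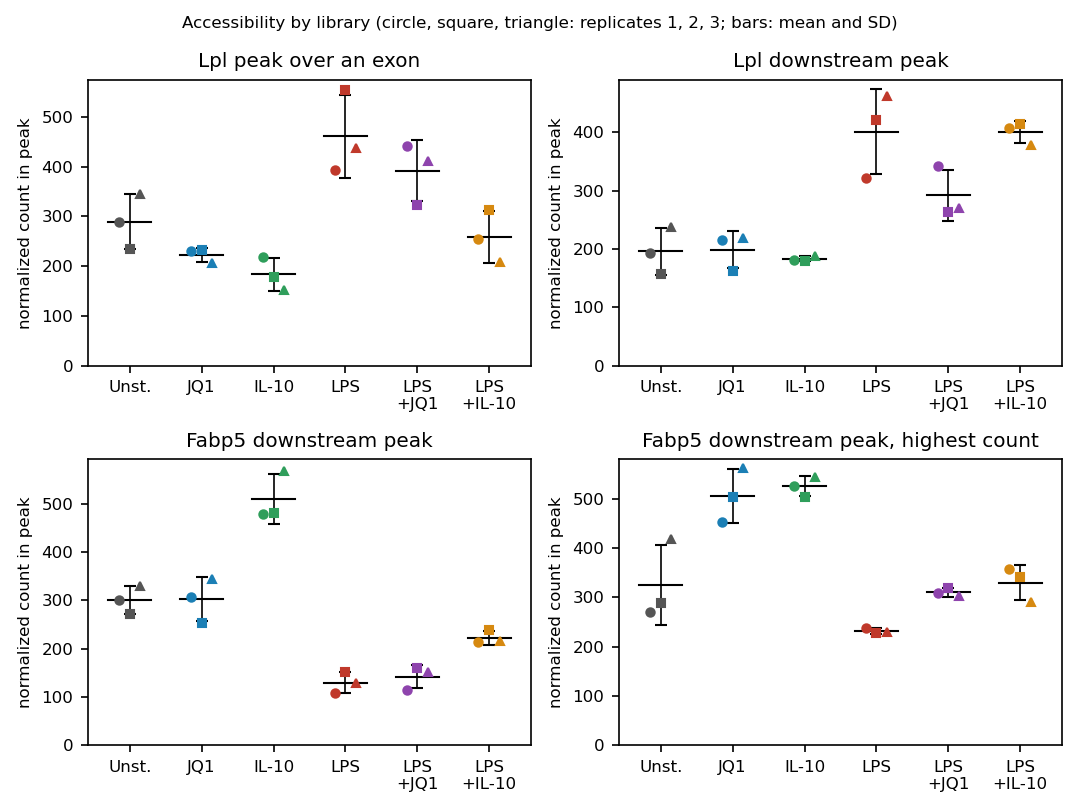
Normalized counts (y axis) of 2 Lpl and 2 Fabp5 peaks in the 6 conditions (x axis), one point per library, with the mean and SD as bars. At the Lpl exon peak the IL-10 libraries lie below the Unstimulated libraries and the LPS + IL-10 libraries below the LPS libraries; at the Fabp5 peaks each of these pairs is the other way round.

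Spp1 encodes osteopontin, a secreted phosphoprotein that binds integrins and CD44. None of its 15 peaks was called by edgeR or by DESeq2 for LPS in (+)-JQ1 or in IL-10 cells. With edgeR 3 and 5 of them had an unadjusted p under 0.05, and with DESeq2 2 and 5. Of all tested peaks LPS raised 5.69% and lowered 3.58% in (+)-JQ1 cells, and raised 8.93% and lowered 6.47% in IL-10 cells. Its upstream peak with the PU.1 matches (chr5:104859257-104860727) was called in Unstimulated cells, with 107, 122 and 92.6 normalized counts in Unstimulated and 148, 159 and 163 with LPS. LPS + (+)-JQ1 libraries had 102, 121 and 95.4, all below the LPS libraries. The log2 fold changes were 0.55 ± 0.17 for LPS (adjusted p = 0.01, edgeR; 0.31 with total counts and 0.43 with loess offsets, not called) and -0.56 ± 0.17 for (+)-JQ1 before LPS (adjusted p = 0.026, edgeR). At the 3′ end (chr5:104868122-104873519) IL-10 libraries had 259, 301 and 282, against 159.7, 148 and 137 in Unstimulated, and LPS + IL-10 libraries 249, 324 and 226, against 178, 206 and 125 with LPS. Neither pair overlapped. The most accessible Spp1 peak outside the promoter, over Pkd2 at chr5:104888533, was not called in any comparison. IL-10 raised the 3′ peak by 0.92 ± 0.16 (adjusted p = 2.1e-05, edgeR) and, under LPS, by 0.64 ± 0.16 (adjusted p = 0.0023, edgeR).

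Cd9 encodes a tetraspanin of the cell surface. Its most accessible peak outside the promoter (chr6:125394827-125396115, downstream of the gene) had 312, 279.7 and 395 normalized counts in Unstimulated, 585, 668 and 681 with (+)-JQ1 and 552, 433 and 476 with LPS. Both treated groups were above Unstimulated with no overlap, by 0.97 ± 0.14 (adjusted p = 2.4e-07, edgeR) and 0.57 ± 0.14 (adjusted p = 0.0012, edgeR). LPS + (+)-JQ1 libraries had 660.4, 593 and 587, which overlapped (+)-JQ1 alone. The LPS value was 0.34 with total counts and 0.23 with loess offsets and was then not called. A weaker downstream peak (chr6:125407339) had 33.9, 31.0 and 32.9 in Unstimulated and 9.49, 8.44 and 22.4 with LPS, a fall of -1.31 ± 0.36 (adjusted p = 0.0037, edgeR). Of the 5 Cd9 promoter peaks, that with the highest count (chr6:125442780-125445148) was not called in any comparison. Its LPS differences were -0.07, -0.11 and 0.03 in the 3 settings. Another, starting at 125426919, had an interaction of LPS with IL-10 of 1.08 (adjusted p = 0.021, edgeR).

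Over all windows, the falls with LPS in pretreated cells were more frequent than in the genome at large. Of the 133 peaks, LPS lowered 24 in (+)-JQ1 cells and raised 5, where 3.58% of all tested peaks fell and 5.69% rose. In IL-10 cells it lowered 25 and raised 6, where 6.47% fell and 8.93% rose. The 24 and 25 had 21 peaks in common, 87.5% and 84.0% of each list: 8 at Gpnmb, 8 at Lgals3, 3 at Fabp5 and 2 at Trem2. These counts ranged from 20 to 29 and from 21 to 25 over every alternative setting run. The median log2 fold change was -0.24 in (+)-JQ1 cells, against -0.01 over all tested peaks, and -0.03 in IL-10 cells, against 0.00. All of these values include the Gpnmb window, which was chosen for its fall with LPS. In the 105 peaks outside it, LPS lowered 15 and raised 5 in (+)-JQ1 cells, and likewise in IL-10 cells. The medians there were -0.17 and -0.007.

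Without an agent, LPS lowered 20 and raised 10 of the 105 peaks of the 6 genes other than Gpnmb, where 10.2% and 11.7% of all tested peaks fell and rose; the lower peaks were 8 at Lgals3 and 4 each at Trem2, Cd9 and Fabp5. With total counts 35 were lower and 3 higher, and with loess offsets 3 were higher. The shares of all tested peaks were counted with TMM only. With total counts the median log2 fold change of all tested peaks was itself -0.26, so the 35 cannot be set against a share. In the Gpnmb window, by description, 15 of 28 met the same cutoffs downward and none upward.

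**Figure D4:**
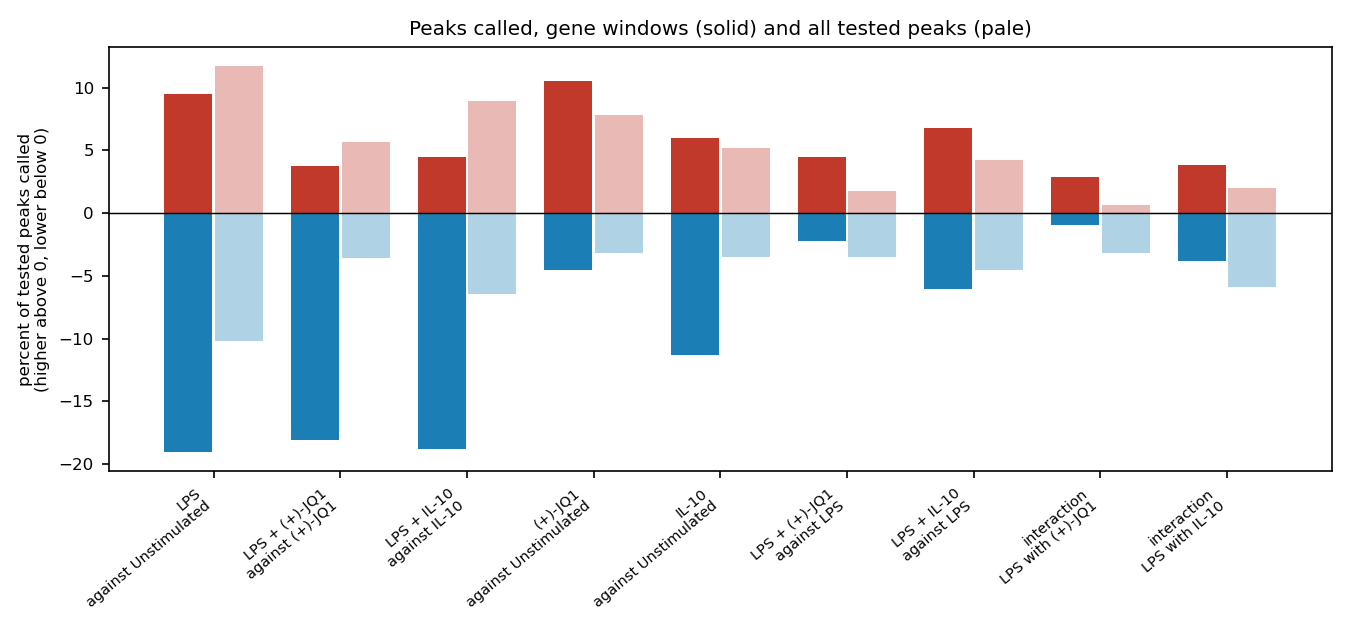
Percent of tested peaks called in each comparison (y axis, higher above 0 and lower below 0), for the 7 gene windows in solid bars and for all tested peaks in pale bars; for LPS against Unstimulated and for both interactions the solid bars cover the 105 peaks outside the Gpnmb window, and elsewhere all 133. The solid lower bars of the 3 LPS comparisons exceed the pale ones beside them. For the agents against Unstimulated and for LPS with an agent against LPS, the Gpnmb peaks in the solid bars are a description with no test. Gpnmb peaks made up 4 of the 6 rises for LPS + (+)-JQ1 against LPS and 4 of the 9 for LPS + IL-10 against LPS.

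Falls were more frequent among broad peaks. Of the 133 peaks, 44 were at least 2000 bp wide; LPS lowered 13 of these in (+)-JQ1 cells (29.5%, against 5.4% of all peaks of that width) and 14 in IL-10 cells (31.8%, against 7.39%). Among the 89 narrower peaks the share was 12.4% in both, against 3.24% and 6.29%. Broad peaks carried more reads, a median of 211 normalized counts against 36.2. These shares include the Gpnmb window, which was chosen for its fall with LPS. The part of width and read number in these shares was not tested.

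(+)-JQ1 alone raised 12 and lowered 6 of the 105 peaks of the 6 genes other than Gpnmb under TMM scaling, where 7.85% and 3.15% of all tested peaks rose and fell; with the Gpnmb window, whose choice used the same Unstimulated libraries, the counts were 14 and 6 of 133. At the Gpnmb promoter the (+)-JQ1 libraries had 503, 637 and 639 and Unstimulated libraries 283, 374 and 489, a log2 difference of 0.63 that is given as a description, with no test. The main Lgals3 promoter peak had 662, 730.2 and 717, against 326, 385 and 513 in Unstimulated, and rose by 0.78 ± 0.14 (adjusted p = 9.4e-06, edgeR). The Lgals3 promoter peaks at chr14:47982753 and chr14:47992105 had means of 333 and 283, against 312 and 230 in Unstimulated, with overlapping ranges. The Trem2 promoter had 509, 500.0 and 514, against 264, 283 and 355, and rose by 0.75 ± 0.14 (adjusted p = 2.1e-05, edgeR). At Spp1 the values were 264, 255 and 213 and 143, 151 and 161, a rise of 0.68 ± 0.15 (adjusted p = 0.00054, edgeR), and the Lpl promoter rose by 0.57 ± 0.13 (adjusted p = 0.00077, edgeR). At all 5 promoters the (+)-JQ1 libraries lay above the Unstimulated libraries with no overlap. The Cd9 promoter peak with the highest count differed by 0.46 ± 0.14, under the fold threshold.

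Outside the Gpnmb window 4 of the 15 peaks at annotated starts were called, and 22.9% of all peaks the authors classed as promoter were higher, so the share at these genes was near that of promoters at large. The calls depend on the scaling. With total counts 2 of the 133 peaks were higher and 20 lower, and with loess offsets 1 was higher. No share of all tested peaks was counted with those scalings, and with total counts their median log2 fold change was -0.37. The 5 promoters then had log2 fold changes of 0.36 at Gpnmb, 0.51 at Lgals3, 0.48 at Trem2, 0.40 at Spp1 and 0.29 at Lpl with total counts; of the 4 genes tested, Lgals3 alone was then called. With loess offsets they had 0.26, 0.29, 0.34, 0.47 and, reversed, -0.20, and none of the 4 was called. Without Unstimulated replicate 1, the library with the highest TMM factor, 9 peaks were higher, and without replicate 2 of every group 4 were.

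**Figure D5:**
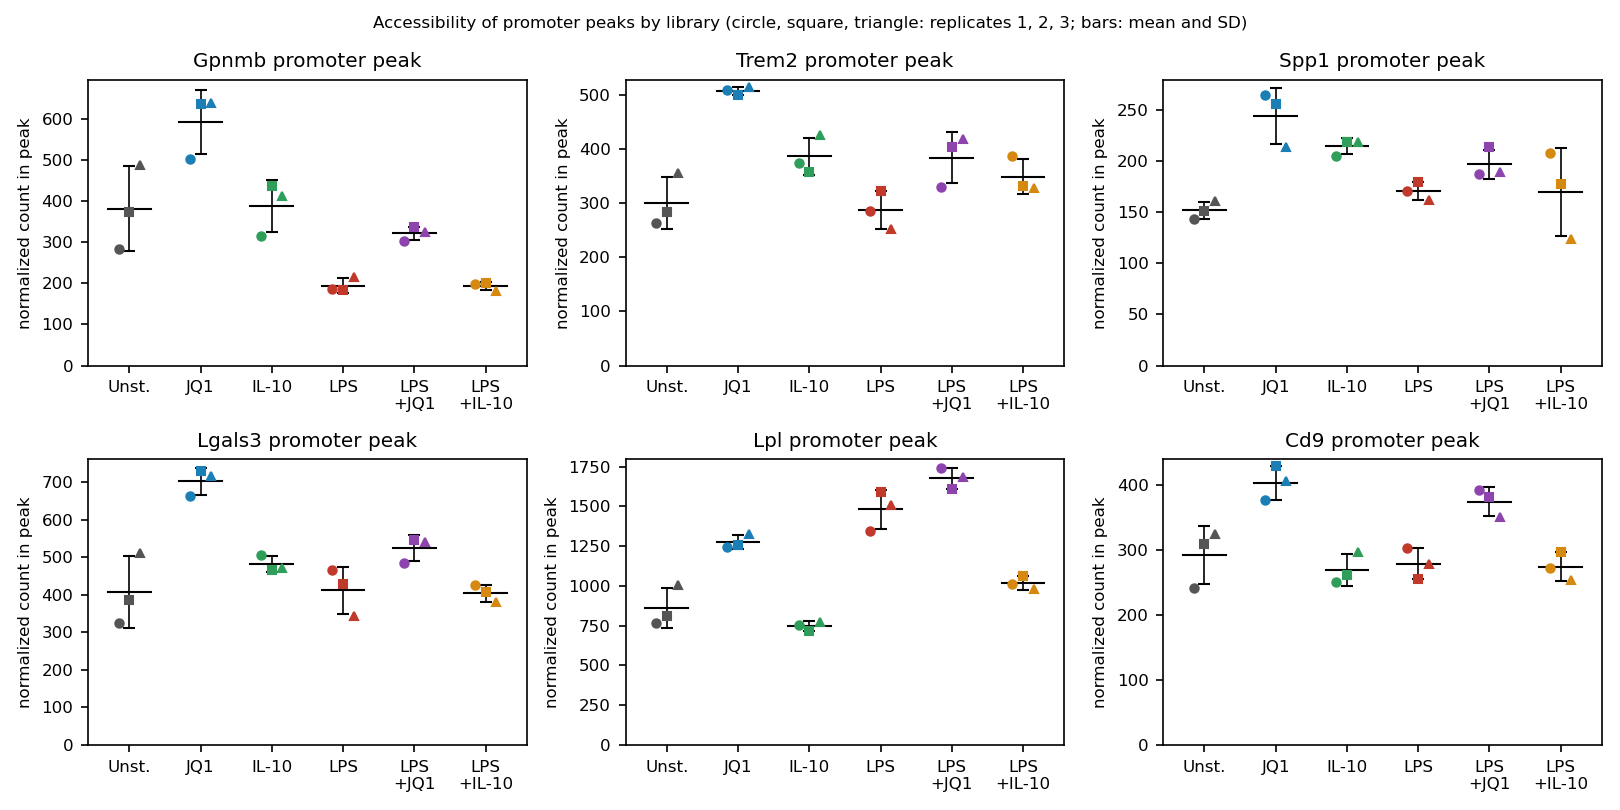
Normalized counts (y axis) of the most accessible promoter peak of each gene that has one, in the 6 conditions (x axis), one point per library, with the mean and SD as bars. The (+)-JQ1 libraries lie above the Unstimulated libraries at each of the 6 promoters, the LPS and LPS + IL-10 libraries are the lowest at Gpnmb, and the LPS + (+)-JQ1 libraries the highest at Lpl.

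With LPS present, (+)-JQ1 raised 2 and lowered 3 of the 105 peaks outside the Gpnmb window, where 1.74% and 3.49% of all tested peaks rose and fell, so the shares were near those of all peaks. The Gpnmb window was chosen by its low values in the same LPS libraries, and its values are a description with no test. Its promoter had 304, 337 and 324 with LPS + (+)-JQ1 and 186, 183 and 215 with LPS, with no overlap, a log2 difference of 0.73. Its intronic peak differed by 0.83, with overlapping ranges. With that window 6 of the 133 peaks met the cutoffs upward and 3 downward. Without replicate 2 of every group edgeR called 0 peaks in either direction, with 12 higher and 4 lower at an unadjusted p under 0.05, and without replicate 3 it called 5 higher and 0 lower; DESeq2 on all libraries called 6 and 2 (all of 133).

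IL-10 alone raised 7 and lowered 14 of the 105 peaks outside the Gpnmb window (8 and 15 of 133 with it), where 5.16% and 3.5% of all tested peaks rose and fell; the 14 were 6 at Lpl, 3 each at Trem2 and Lgals3 and 2 at Cd9. With total counts 3 of the 133 rose and 25 fell, and with loess offsets 1 rose. No share of all tested peaks was counted with those scalings, and with total counts their median log2 fold change was -0.26. With LPS present, IL-10 raised 5 and lowered 8 of the 105, where 4.26% and 4.51% rose and fell. Of the 5, 4 were downstream of Fabp5, and 6 of the 8 were at Lpl. In the Gpnmb window, chosen by low values in the same LPS libraries, 4 upstream peaks met the cutoffs upward, which is a description with no test. That at chr6:48975900-48977099 had 154, 145 and 167 with LPS + IL-10 and 86.3, 84.4 and 88.6 with LPS, with no overlap and a log2 difference of 0.85; at the Gpnmb promoter it was -0.01.

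Whether (+)-JQ1 or IL-10 changed the response to LPS was tested as an interaction in the 105 peaks outside the Gpnmb window. With (+)-JQ1, 3 interactions were positive and 1 negative, where 0.649% and 3.19% of all tested peaks were. With IL-10, 4 were positive and 4 negative, where 2.01% and 5.9% were. With total counts there were 13 positive and 0 negative with (+)-JQ1 and 12 positive with IL-10, and with loess offsets 6 and 7 were positive. No share of all tested peaks was counted with those scalings. With total counts their median interactions were 0.29 with (+)-JQ1 and 0.31 with IL-10. At Lpl and Fabp5 no interaction was called by edgeR or DESeq2; with (+)-JQ1, 2 at each gene had an unadjusted p under 0.05 in edgeR, and with IL-10 0 did. In the Gpnmb intronic peak, by description, the interaction was 1.26 with (+)-JQ1 and 0.78 with IL-10.

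A list of 24 other genes of lipid handling, lysosomes and the TREM2 and MiT/TFE pathways held 584 peaks by the same window rule. LPS alone lowered 122 of them (20.9%, against 10.2% of all tested peaks) and raised 66 (11.3%, against 11.7%). In (+)-JQ1 cells it lowered 63 (10.8%, against 3.58%) and raised 19 (3.25%, against 5.69%), and in IL-10 cells it lowered 70 (12.0%, against 6.47%) and raised 72 (12.3%, against 8.93%). The genes of the list did not move together. At Igf1, a growth factor gene, 34 of 43 peaks fell with LPS alone, 8 in (+)-JQ1 cells and 20 in IL-10 cells. At Atp6v0d2, a subunit gene of the lysosomal proton pump, 12 of 23 fell, and 11 and 12 fell in pretreated cells. At Apoe, the gene of the lipoprotein apolipoprotein E, 6 of 16 fell, and 6 and 5 did in pretreated cells. At Tfec, a MiT/TFE factor gene, 19 of 43 rose and none fell, and 14 of 32 rose at Msr1, a scavenger receptor gene. The other MiT/TFE factor genes of the list differed from each other. At Mitf 12 of 76 rose and none fell, at Tfeb 10 of 26 fell and none rose, and at Tfe3 1 of 16 rose and 2 fell.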

How the data were processed

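ATAC-seq libraries of 18 BMDM cultures, 3 in each of 6 conditions, were analysed. The authors processed paired-end reads with PEPATAC at its default settings, aligned them to mm9 with Bowtie2, called peaks per sample with MACS2 and classed them as promoter or distal with ChIPseeker; the counting tool is not given in the sources used here. The deposited table holds raw counts per peak over the union of the samples' peaks, without normalization. Its 6 columns that match no sample were not used.

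Counts of all libraries were fitted together with edgeR 4.0.16 (R 4.3.3, limma 3.58.1; quasi-likelihood test, TMM factors, filterByExpr, 1 coefficient per condition), with Benjamini-Hochberg adjustment over 194230 peaks. DESeq2 1.42.0 was an alternative. Peak starts were taken as counted from 0 and are printed counted from 1. Windows, promoters and motifs used the mm9 annotation and sequence with Python 3.11.15. The fit was also run on simulated counts for the Unstimulated and LPS groups only, which cannot judge the scaling or the interactions. Total counts per library were 12020526 to 25908198.

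The genes, the pathway list and the tests were chosen with earlier results of these data known. The rule for named peaks took the Gpnmb peak with the lowest value for LPS; each gene's promoter peak and other peak with the highest mean count; in each comparison the called peaks with the largest rise and fall at a mean of at least 50 normalized counts; each gene's called peak with the largest change with LPS; and the called interactions with the smallest p. The peaks at chr6:49004736, chr6:48982527, chr14:48006313, chr14:47992105 and chr3:10004627 were named after their values were seen. Alternatives covered scaling, filters, thresholds, lane, the replicate number as a block and leaving out libraries. Those without Unstimulated replicate 1 or 2 were chosen after seeing the data. One of the peaks most like the Gpnmb intronic peak is not reported here.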

Additional observations from a re-analysis of the deposited data

Results flagged for a closer look

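In 12 cases among the 105 peaks outside the Gpnmb window, which was left out because its LPS contrast chose the gene, the response to LPS differed between cells with and without an agent by the interaction test itself (edgeR's quasi-likelihood test, Benjamini-Hochberg adjusted p). Some peaks count once for each agent. With (+)-JQ1 3 were positive and 1 negative, against 0.649% and 3.19% of all tested peaks. With IL-10 4 were positive and 4 negative, against 2.01% and 5.9%. Negative interactions were thus no more frequent than among all peaks. With (+)-JQ1 the log2 difference between the 2 LPS responses was 0.98 (adjusted p = 0.0058) at the Trem2 downstream peak over Treml1, 2.57 (adjusted p = 0.017) at the Trem2 downstream peak at chr17:48506414-48506969, 0.79 (adjusted p = 0.019) at a Cd9 intronic peak starting at 125416110, and -0.64 (adjusted p = 0.043) at the Cd9 downstream peak at chr6:125394827-125396115. The last was not called with total counts (-0.37), with loess offsets (-0.22), with the replicate number as a block, with only the groups compared, at an FDR of 0.01 or without replicate 1 or 2. The Trem2 peak at chr17:48506414-48506969 rested on few reads, with mean normalized counts from 5.10 with LPS to 29.7 in Unstimulated.

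With IL-10 it was 2.17 (adjusted p = 0.037) at the same narrow Trem2 peak, 0.64 (adjusted p = 0.043) at the Cd9 intronic peak, 0.86 (adjusted p = 0.0056) at a Cd9 downstream peak starting at 125402705, 1.08 (adjusted p = 0.021) at a Cd9 promoter peak starting at 125426919, and -0.79 (adjusted p = 0.0048) at the Cd9 downstream peak named above. At Spp1 it was -0.97 (adjusted p = 0.003) at the upstream peak with the PU.1 matches. At Lgals3 it was -0.92 (adjusted p = 0.0028) and -0.75 (adjusted p = 0.0061) at the upstream peaks starting at 47978986 and 47981134. All of these use the Unstimulated libraries, and the count of positive interactions moves with the scaling.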

How the results depend on the processing

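Falls with LPS in pretreated cells, 24 with (+)-JQ1 and 25 with IL-10, stayed within 1.5 times under every setting run; leaving out libraries gave 20 to 24 and 21 to 25. Other counts moved. With total counts in place of TMM, LPS raised 3 and lowered 35 peaks (10 and 20 with TMM), (+)-JQ1 raised 2 and lowered 20 (14 and 6), IL-10 raised 3 and lowered 25 (8 and 15), and LPS + IL-10 lowered 5 against LPS (8); interactions were 13 positive and 0 negative with (+)-JQ1 (3 and 1) and 12 positive with IL-10 (4). With loess offsets LPS raised 3, (+)-JQ1 raised 1 and IL-10 raised 1, and interactions were 6 positive and 0 negative with (+)-JQ1 and 7 positive and 2 negative (4) with IL-10. The Lpl promoter then reversed with (+)-JQ1, from 0.57 to -0.20. Shares of all tested peaks were counted with TMM only, so none stands beside the counts of other settings.

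With at least 10 counts in every library, (+)-JQ1 lowered 10, IL-10 raised 5, and 7 interactions were positive with (+)-JQ1 and 7 with IL-10. DESeq2 gave 3 lower with (+)-JQ1 and 4 negative interactions; its size factors in edgeR gave 3 and 2. At an FDR of 0.01, LPS raised 3 in IL-10 cells, (+)-JQ1 lowered 3, IL-10 lowered 8, LPS + (+)-JQ1 was higher in 2 and lower in 0, LPS + IL-10 higher in 5, and interactions were 1 positive and 0 negative with (+)-JQ1 and 1 positive with IL-10. With no minimum fold change, LPS raised 11 in IL-10 cells and LPS + (+)-JQ1 was higher in 10. Within 25 kb of a start, LPS raised 3 in (+)-JQ1 cells. Lane as a covariate gave 2 negative interactions with (+)-JQ1, and only the groups compared gave 0.

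The sources used here do not say that a replicate number stands for 1 mouse. The correlation of deviations from the group means averaged 0.0057 where libraries shared a number (45 pairs, highest 0.064) and -0.0029 where they did not (90 pairs, highest 0.075), so not every library correlated best with its own number. With the replicate number as a replicate block, 0 interactions were negative with (+)-JQ1 and 4 positive, LPS + IL-10 lowered 9 against LPS, and every other count was that without the block.

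Leaving out libraries gave 5 to 9 higher and 16 to 23 lower for LPS, 3 to 5 higher in (+)-JQ1 cells and 3 to 9 in IL-10 cells, 4 to 21 higher and 1 to 7 lower for (+)-JQ1, and 2 to 10 higher and 5 to 13 lower for IL-10. For LPS + (+)-JQ1 against LPS it gave 0 to 8 higher and 0 to 3 lower, and for LPS + IL-10 against LPS 3 to 9 and 5 to 9. Interactions were 0 to 5 positive and 0 to 3 negative with (+)-JQ1, and 1 to 3 and 0 to 4 with IL-10. The lowest counts came mostly without replicate 2. The cause of these changes was not tested.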

Other observations

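Over the 18 libraries, peaks whose levels were among the most like those of the Gpnmb intronic peak, by Pearson's r of log2 CPM among 72624 candidate peaks, lay nearest to Pygb (r = 0.988), Zfp36l2 (r = 0.984), Avil (r = 0.980) and Cdan1 (r = 0.976). The libraries share their 6 conditions, so these values are a description; the first 5 by Spearman's rho held 2 of the first 5 by Pearson's r, Cdan1 and Avil.

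In the list of 24 genes, IL-10 with LPS raised 65 of the 584 peaks (11.1%, against 4.26% of all tested peaks) and lowered 15 (2.57%, against 4.51%) relative to LPS alone. Msr1 held 18 of the 65. At Mitf, a MiT/TFE factor gene with 76 peaks, LPS raised 14 in IL-10 cells and 4 in (+)-JQ1 cells and lowered none in either. At Tfeb, of the same family and with 26 peaks, it lowered 2 in IL-10 cells and 3 in (+)-JQ1 cells and raised none in either. Of all tested peaks LPS raised 8.93% and lowered 6.47% in IL-10 cells, and raised 5.69% and lowered 3.58% in (+)-JQ1 cells. The Tfeb count in IL-10 cells and the Mitf count in (+)-JQ1 cells were therefore near the shares of all peaks.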
